A study of Mus musculus with 16 samples.

Results

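The guanylate-binding proteins (GBPs) are a family of large interferon-inducible GTPases, and 10 of their genes, *Gbp2* to *Gbp11*, were followed here by gene symbol among the 26382 genes of a mouse muscle expression table. Hamstring muscle was taken 14 days after injection from female C57BL/6 mice of 8 to 10 weeks, and bulk RNA sequencing gave 16 libraries from 9 mice. In 5 mice (m862 to m866) the left hamstring had received recombinant murine histidyl-tRNA synthetase (HRS, the Jo-1 antigen, 3 to 5 mg/mL) and the right hamstring PBS, and each leg gave 1 library. The PBS-only group has 4 libraries, both legs of the mice m867 and m868, so it rests on 2 animals. The last 2 libraries, of m860 and m861, carry the same HRS treatment label (3 to 5 mg/mL) but a title that names an MBP fusion at 2 to 3 mg/mL and no leg, and are called HRS-MBP. The general protocol describes HRS in both hamstrings whereas the sample titles assign it to 1 leg, and the titles were followed. The contralateral legs belong to immunized animals and are not a model of an untreated mouse. The implied depth was 37.3 M to 73.9 M reads (M, mega) in HRS legs, 24.7 M to 72.8 M in contralateral legs and 8.60 M to 40.7 M in PBS-only legs.

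GBPs assemble on the membranes of intracellular bacteria and of parasite-containing vacuoles, where they help to break these membranes open and to expose bacterial products to the inflammasome. Most cell types make little GBP RNA at rest and more after IFN-γ, with the transcription factor IRF1 among its mediators. Interferon-inducible genes are a known feature of inflamed muscle in the inflammatory myopathies. In the mouse the genes lie in 2 clusters. In GRCm38 the 4 members on chromosome 3 (*Gbp5*, *Gbp7*, *Gbp3* and *Gbp2*, in this order on the plus strand) spanned 144 kb, and the 6 on chromosome 5 (*Gbp8*, *Gbp9*, *Gbp4*, *Gbp10*, *Gbp6* and *Gbp11*, all on the minus strand) spanned 332.3 kb. All were annotated as protein coding except *Gbp11*, a polymorphic pseudogene.

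Because members of both clusters were higher together in HRS legs, promoters, from 250 bases before to 50 bases after the start of transcription, were searched for 2 interferon response motifs. RefSeq promoters (GRCm38.p6) were found for 4 of the 10 members, *Gbp2*, *Gbp3*, *Gbp5* and *Gbp7*. No promoter was listed for *Gbp4*, *Gbp6*, *Gbp8*, *Gbp9*, *Gbp10* or *Gbp11*, so the search covered the chromosome 3 cluster and no member of the chromosome 5 cluster. The ISRE-like motif was searched as GAAA, any 2 bases and GAAA, on both strands (TTTC, any 2 bases and TTTC on the other), and the GAS-like motif as TTCNNNGAA, which is its own reverse complement. The 2 motifs were allowed to overlap. The 250 bases before the start are given 5′ to 3′ on the plus strand, with matches in capitals. They cover chr3:142620413-142620662 for *Gbp2*, chr3:142559794-142560043 for the first of 2 listed starts of *Gbp3*, chr3:142496684-142496933 for *Gbp5* and chr3:142530086-142530335 for *Gbp7*.
Gbp2: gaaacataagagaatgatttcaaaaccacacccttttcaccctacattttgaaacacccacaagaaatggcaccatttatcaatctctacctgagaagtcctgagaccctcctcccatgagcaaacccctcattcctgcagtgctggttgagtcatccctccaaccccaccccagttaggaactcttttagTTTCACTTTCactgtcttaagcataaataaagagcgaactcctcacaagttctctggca
Gbp3: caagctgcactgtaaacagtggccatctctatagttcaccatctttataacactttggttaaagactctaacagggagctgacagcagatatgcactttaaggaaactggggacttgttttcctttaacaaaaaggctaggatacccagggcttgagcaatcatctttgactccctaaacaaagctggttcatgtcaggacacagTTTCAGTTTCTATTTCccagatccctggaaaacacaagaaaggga
Gbp5: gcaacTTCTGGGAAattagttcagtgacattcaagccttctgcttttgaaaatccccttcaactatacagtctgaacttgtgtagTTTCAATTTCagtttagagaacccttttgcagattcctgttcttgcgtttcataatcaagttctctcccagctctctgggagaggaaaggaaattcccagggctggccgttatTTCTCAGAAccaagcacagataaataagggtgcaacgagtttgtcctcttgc
Gbp7: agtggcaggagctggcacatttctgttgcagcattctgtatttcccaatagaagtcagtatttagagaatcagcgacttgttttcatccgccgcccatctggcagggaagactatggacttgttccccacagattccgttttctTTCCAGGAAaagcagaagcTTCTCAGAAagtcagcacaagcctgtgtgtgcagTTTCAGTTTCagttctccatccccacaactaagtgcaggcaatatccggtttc

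An ISRE-like match was present in 4 of the 5 promoters listed for these genes, the exception being the second start of *Gbp3*, against 3.44% of 32851 mouse promoters. Per gene, with any start counted, it was present in 4 of the 4 chromosome 3 members, against 3.99% of genes. In *Gbp2* the match TTTCACTTTC ended 49 bases before the RefSeq start, and in *Gbp7* the match TTTCAGTTTC ended 43 bases before it. The first start of *Gbp3* held 2 overlapping matches, TTTCAGTTTC and TTTCTATTTC, at 35 and 29 bases, and the match TTTCAATTTC of *Gbp5* lay farther upstream, at 155 bases. The GAS-like motif was found in *Gbp5* (TTCTGGGAA and TTCTCAGAA) and *Gbp7* (TTCCAGGAA and TTCTCAGAA), and in 8.3% of all promoters, and both motifs stood together in 0.454%. The GENCODE genes of *Gbp2* and *Gbp5* start upstream of these RefSeq starts, at 142620602 and 142493978, so that their matches lie within the annotated genes. A match is a run of letters and was not tested as a binding site.

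All 10 members were higher in HRS legs than in the contralateral PBS legs, in each of the 5 mice. By limma on log2(normalized count + 0.5), with calls at an adjusted p below 0.05 and an absolute log2 fold change (log2FC) above 1, 9 of the 9 members other than *Gbp11* were called higher and 0 lower, where 16.9% of the 16414 tested genes were called higher and 6.27% lower. *Gbp11* is left out of these counts since it passed the filter on low values only through the libraries in which it was high. The median log2FC of the 9 was 2.56 against 0.08 for all tested genes. It ranged from 1.35 for *Gbp9* to 4.90 for *Gbp10*. Every HRS leg exceeded every contralateral leg for 8 of the 9, a separation seen in 18.3% of tested genes, and *Gbp4* was the exception. In bulk muscle, fewer cells of a type and less RNA per cell cannot be told apart.

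**Figure D1:**
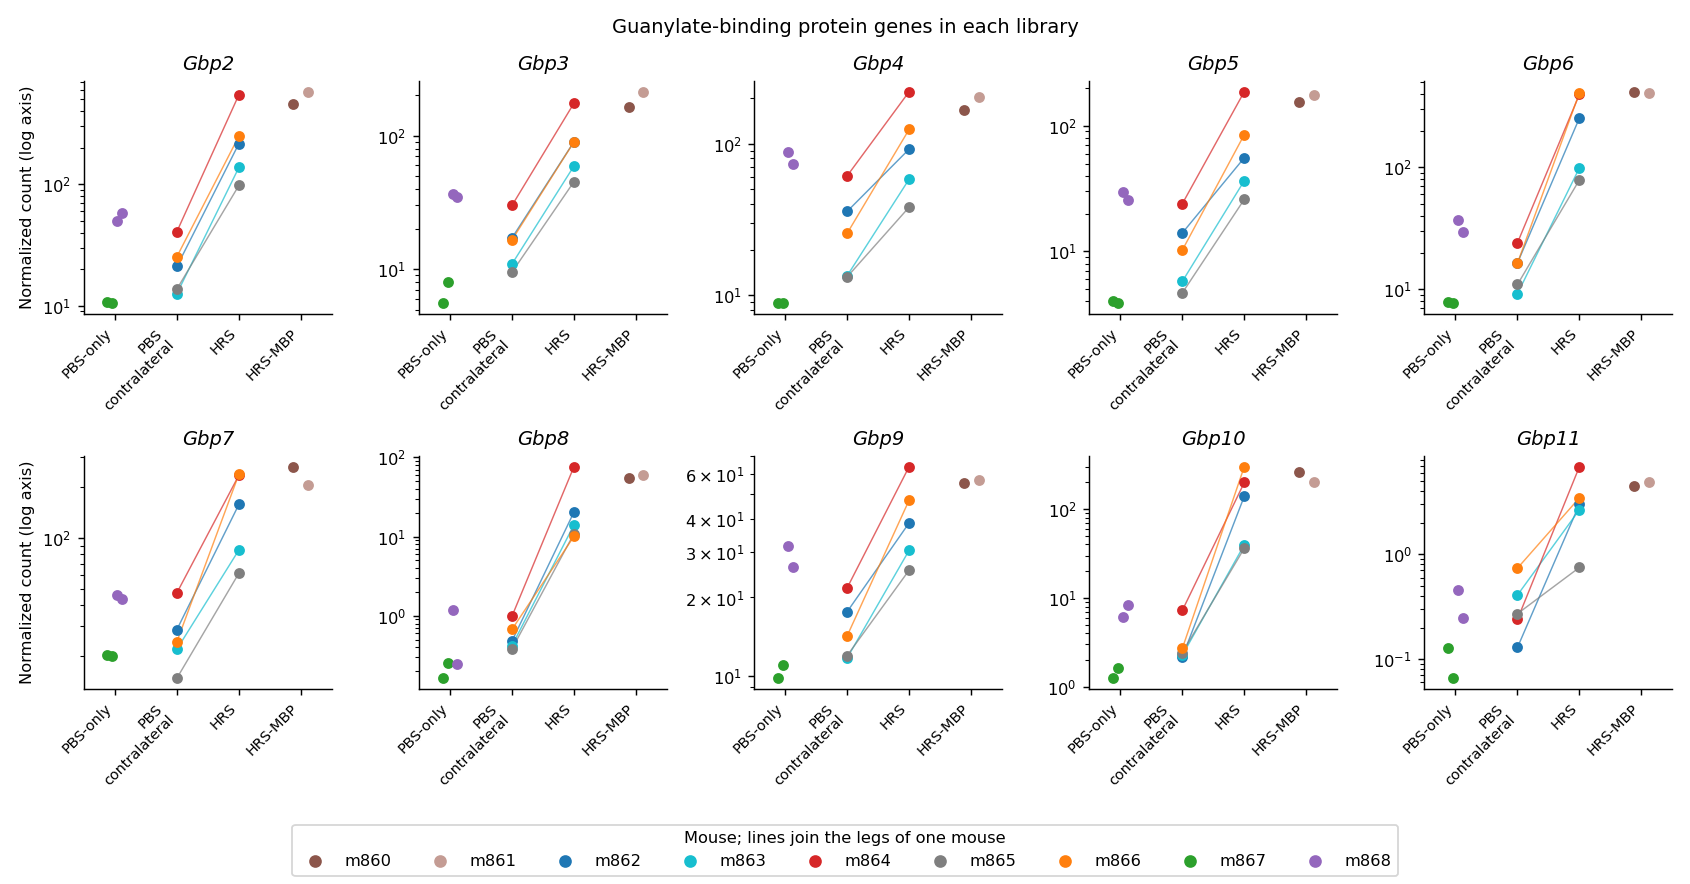
Normalized count (log axis) of each member in 16 libraries, by group, with a point per library coloured by mouse and lines joining the legs of one mouse. Each line rises from the contralateral PBS leg to the HRS leg, and the PBS-only legs of m868 lie above those of m867 except for the right leg in *Gbp8*.

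On chromosome 3, *Gbp2* (ENSMUSG00000028270.12, chr3:142620602-142638008), whose prenylated product is recruited to parasite vacuoles and bacteria, reached 216, 137, 546, 97.7 and 249 normalized counts in the HRS legs of m862 to m866. The contralateral legs held 21.02, 12.6, 40.7, 13.7 and 25.3. The groups did not overlap, and m864 was highest in both legs. The log2FC was 3.30 (SE 0.53, limma adjusted p = 0.00017), and within mice the HRS leg was 7.13- to 13.4-fold higher.

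*Gbp5* (ENSMUSG00000105504.4, chr3:142493978-142522344), another prenylated member, linked to inflammasome activation, stood at 55.6, 36.5, 187, 25.9 and 84.9 in the HRS legs. It stood at 14.0, 5.77, 23.9, 4.68 and 10.2 in the contralateral legs. The lowest HRS leg (m865) lay just above the highest PBS leg (m864), although within each mouse the HRS leg was 3.97- to 8.30-fold higher. Its log2FC was 2.56 (SE 0.63, limma adjusted p = 0.00314).

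*Gbp7* (ENSMUSG00000040253.15, chr3:142530342-142550149), which macrophages need for control of *Listeria* and mycobacteria, had 158, 84.8, 235, 61.7 and 238 normalized counts in the HRS legs. The contralateral legs had 28.6, 21.9, 47.2, 14.7 and 24.2. The rise was steepest in m866, at 9.84-fold, and 3.88- to 5.52-fold in the other 4 mice, with a log2FC of 2.40 (SE 0.39, limma adjusted p = 0.000209). *Gbp3* (ENSMUSG00000028268.14, chr3:142560026-142573209) was the most even member. Its HRS legs held 90.0, 59.3, 175, 45.3 and 89.8 against 17.2, 10.97, 30.05, 9.53 and 16.6 in the PBS legs. The within-mouse rise of *Gbp3* varied only from 4.75- to 5.82-fold, and its log2FC was 2.37 (SE 0.49, limma adjusted p = 0.00121).

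On chromosome 5, *Gbp10* (ENSMUSG00000105096.1, chr5:105215699-105239533) and *Gbp6* (ENSMUSG00000104713.4, chr5:105270702-105293698) had the largest and the third largest change. Loss of either in macrophages weakens control of *Listeria* and mycobacteria. *Gbp10* had 139.9, 39.7, 199.6, 36.4 and 302 normalized counts in the HRS legs. It had 2.17, 2.27, 7.24, 2.43 and 2.703 in the contralateral legs, so that 4 of the 5 PBS legs lay close together and m864 apart. The HRS leg was 14.95- to 112-fold higher within mice, with a log2FC of 4.90 (SE 0.59, limma adjusted p = 1.59e-05) that ranked 14 among the tested genes. *Gbp6* had 254, 99.0, 396, 78.9 and 408 in the HRS legs against 16.5, 9.20, 24.0, 10.96 and 16.4. Its groups did not overlap, and its log2FC was 3.73 (SE 0.52, limma adjusted p = 4.96e-05).

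The values of *Gbp6* and *Gbp10* cannot be separated with certainty. Their coding sequences were 98.36% identical, and 82.91% of the 100-base windows of the main *Gbp6* transcript, and 70.87% of those of *Gbp10*, also occur in another annotated gene. These other genes were *Gm43302*, whose exons overlap both on the same strand, the partner, and *Gbp11* or *Gbp8*. The sum of *Gbp6*, *Gbp10* and *Gm43302*, an alternative chosen after the data were seen, was 468, 162, 695, 139.7 and 838 normalized counts in the HRS legs and 18.9, 13.2, 38.6, 15.3 and 21.99 in the contralateral legs. The sum was thus 9.14- to 38.1-fold higher within mice (higher in 5 of 5 mice, for which the exact two-sided sign-flip test gave the smallest p that 5 mice allow). The other members shared fewer exact 100-base windows with other genes, at most 10.19%, in *Gbp7*, although coding identity reached 90.81% between *Gbp4* and *Gbp11* and 87.74% between *Gbp4* and *Gbp9*.

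*Gbp8* (ENSMUSG00000034438.16, chr5:105014150-105139540) was low in PBS muscle, where 1 of 9 libraries lay under the worth of 3 reads, and higher in HRS legs. Its HRS legs held 20.5, 14.1, 76.6, 10.9 and 10.1 normalized counts. The contralateral legs held 0.483, 0.422, 0.994, 0.384 and 0.676, worth 13.1 to 25.6 reads at the implied depth. It was 14.9- to 77.1-fold higher within mice, and its log2FC was 4.19 (SE 0.44, limma adjusted p = 4.65e-06), a scale that understates the change of a gene this low.

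*Gbp9* (ENSMUSG00000029298.15, chr5:105077630-105139539) and *Gbp4* (ENSMUSG00000079363.7, chr5:105115767-105139586), whose annotated 5′ ends lie close to that of *Gbp8* and whose exons overlap it in small part, had the lowest log2FC of the family. *Gbp9* had 38.8, 30.4, 64.0, 25.5 and 47.5 in the HRS legs against 17.6, 11.7, 21.8, 11.9 and 14.2, with a log2FC of 1.35 (SE 0.32, limma adjusted p = 0.00232). *Gbp4* had 92.1, 58.3, 221, 38.1 and 124 against 35.7, 13.4, 61.3, 13.2 and 25.6. The PBS leg of m864 thus lay above the HRS legs of m863 and m865 for *Gbp4*, although its HRS leg was 2.58- to 4.86-fold higher in every mouse. Its log2FC was 1.81 (SE 0.67, limma adjusted p = 0.0285). With mouse as a fixed replicate block in the 10 paired libraries it was called at an adjusted p of 0.00109. With mouse as a random block over 16 libraries the call was lost (adjusted p = 0.057). That block used a negative correlation, -0.154, between libraries of 1 mouse. The call was also lost without the HRS leg of m864 (adjusted p = 0.0786), the PBS leg of m863 (0.0695), the PBS leg of m865 (0.0711) or both legs of m866 (0.0602). *Gbp11* (ENSMUSG00000092021.8, chr5:105323042-105346472) was the lowest member. It had 3.00, 2.66, 6.86, 0.749 and 3.46 in the HRS legs and 0.129, 0.408, 0.239, 0.271 and 0.736 in the contralateral legs, where m865 (HRS) and m866 (PBS) nearly met. Its log2FC of 1.99 (SE 0.35) is given as a value only.

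**Figure D2:**
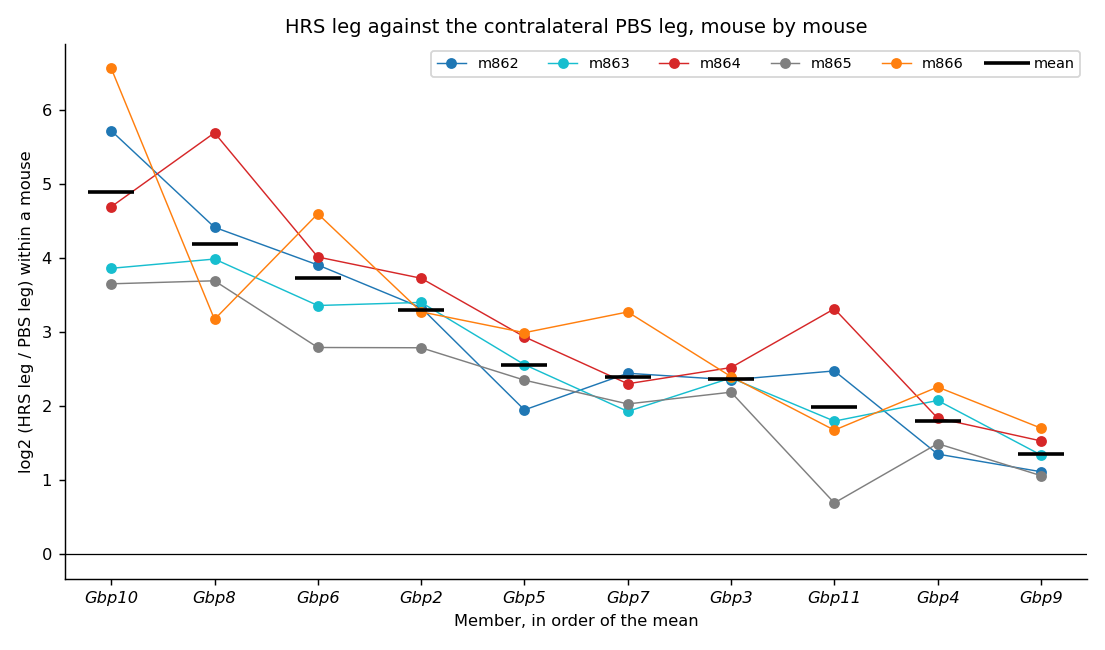
The log2 ratio of the HRS leg to the contralateral PBS leg, on normalized count + 0.5, for each member and each of 5 mice, with the mean as a black bar. All ratios are above 0, and *Gbp10* and *Gbp8* change order between mice m864 and m866.

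The members did not rise by the same amount. *Gbp10* rose by more than *Gbp9* in 5 of 5 mice, with a mean difference of 3.54 on the log2 scale (SD 1.11), and *Gbp8* rose by more than *Gbp9* by 2.84 (SD 0.99, 5 of 5 mice). Of the 45 pairs of members, 31 kept 1 direction in all 5 mice. Both counts include pairs with *Gbp11*, which passed the filter on low values only through the libraries in which it was high. With 5 mice the exact two-sided sign-flip test cannot reach p = 0.05, and the smallest adjusted p over the 45 pairs was 0.0907, so these differences between members are given as a description. *Gbp8* against *Gbp10* was not such a pair, since *Gbp10* rose by more in only 2 of 5 mice, and the median within-mouse fold was 33.5 for *Gbp8* and 27.6 for *Gbp10*. In m864, *Gbp8* rose 77.1-fold and *Gbp10* 27.6-fold, whereas in m866 *Gbp8* rose 14.9-fold and *Gbp10* 112-fold.

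The HRS leg of m866 carried the highest values of *Gbp6*, *Gbp7* and *Gbp10* and the lowest value of *Gbp8*, while the HRS leg of m864 was highest for the other 7 members, *Gbp8* included. In 9 of 10 members the lowest HRS leg was that of m865. The leg of m866 also stood apart in its markers. Its 7 macrophage markers summed to 1106 normalized counts, the lowest of the 5 HRS legs, whose others held 2472 to 5494, and its 4 fibroblast markers summed to 1824 against 10475 to 18133. Its 8 muscle fibre markers summed to 165546, the highest of the 5, against 40951 to 100307 in the other legs and 118765 to 192788 in the contralateral legs. The share of mitochondrial genes in all normalized counts was 11.1% in this leg and 3.41% to 6.29% in the other HRS legs, against 9.69% to 11.2% in contralateral legs, 11.3% to 13.1% in PBS-only legs, and 5.94% and 6.98% in HRS-MBP. The part of these differences in the values of the members was not tested. Without both legs of m866, the log2FC of *Gbp10* and *Gbp6* remained above 1 and called, and no fold of the 10 members moved by 1.5 times when any 1 library, or both legs of m864 or m866, were left out of this comparison.

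**Figure D3:**
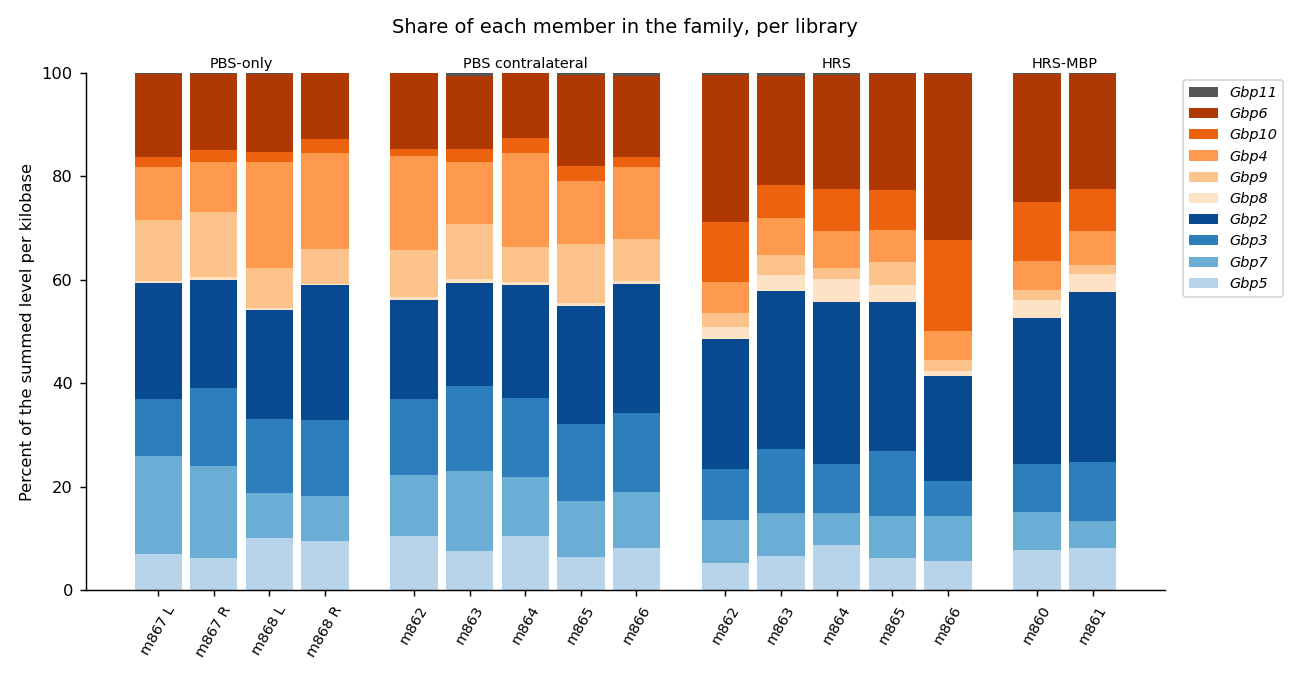
Share of each member, in percent, in the family's summed level per kilobase of transcript, for 16 libraries by group, with chromosome 3 members in blue, chromosome 5 members in orange and *Gbp11* in grey. *Gbp6* and *Gbp10* take a larger share, and *Gbp4* and *Gbp9* a smaller one, in HRS and HRS-MBP libraries than in PBS libraries.

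Levels of different genes were compared per kilobase of the main transcript. In the contralateral PBS legs the highest level was that of *Gbp2*, at 9.01 ± 4.53 normalized counts per kilobase (SD, n = 5), above *Gbp4* in 5 of 5 legs. *Gbp4* (6.58 ± 4.39), *Gbp3* (6.29 ± 3.02) and *Gbp6* (5.92 ± 2.23) followed, in an order that varied between legs. *Gbp10* (0.953 ± 0.618), *Gbp8* (0.241 ± 0.102) and *Gbp11* (0.133 ± 0.0871) closed the order in each of the 5 legs. In the HRS legs *Gbp2* (99.1 ± 70.1) and *Gbp6* (94.9 ± 60.2) led, without a difference beyond their spread, since *Gbp2* was the higher in only 3 of 5 legs. *Gbp10* followed at 40.7 ± 31.8 and *Gbp3* at 34.3 ± 18.8, again without a fixed order. *Gbp11* was lowest in every leg, at 1.24 ± 0.824.

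The make-up of the family thus differed between the legs. *Gbp6* and *Gbp10* together made up 35.5% ± 9.23 (SD, n = 5) of the summed level per kilobase in HRS legs and 17.2% ± 2.02 in contralateral legs. This share was higher by 18.3 percentage points on average and in 5 of 5 mice. It still depends on how reads were split between the genes, since their transcripts differ in length. *Gm43302*, which shares sequence with both, is not in the sum or in the family total. *Gbp4* made up 6.40% ± 0.679 against 14.9% ± 3.14, and *Gbp9* 3.02% ± 1.006 against 9.22% ± 1.90, both lower in 5 of 5 mice. *Gbp2* held 27.2% ± 4.55 and 21.7% ± 2.27, higher in 4 of 5 mice. The chromosome 5 members summed to 48.1% ± 6.78 in HRS legs and 42.2% ± 2.07 in contralateral legs, higher in 4 of 5 mice, and reached 58.5% in 1 HRS leg against at most 45.1% in contralateral legs. Shares sum to 100%, so a larger share of 1 member lowers those of the others.

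Next, the HRS legs were compared with the PBS-only mice. They share the HRS legs with the comparison above, so the 2 are not independent. Again 9 of the 9 members other than *Gbp11* were called higher, where 18.9% of tested genes were, and their median log2FC was 2.46 (0.15 for all tested genes), in a range from 1.15 (*Gbp9*) to 4.77 (*Gbp10*). However, every HRS leg lay above every PBS-only leg for only 6 of the 9 (26.6% of tested genes). *Gbp4* was at 8.83 and 8.86 normalized counts in the legs of m867 and at 88.0 and 73.7 in those of m868, above the HRS legs of m863 and m865. Its adjusted p by limma was 0.0473, and the call was lost in 17 of 24 alternatives. With both legs of m867 left out, the log2FC of *Gbp4* (0.15, adjusted p = 0.862), *Gbp5* (1.14, adjusted p = 0.172) and *Gbp9* (0.44, adjusted p = 0.255) were no longer called. The median over the 10 members, 2.41 in the main fit, was then 1.77. With both legs of m868 left out, these 3 were called and that median was 3.66. Over animals, 5 against 2, the exact two-sided permutation p was 0.190 for *Gbp4* and 0.0952 for *Gbp5* and *Gbp9*. It was 0.0476, the smallest possible, for the other 6 of the 9 members besides *Gbp11*.

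**Figure D4:**
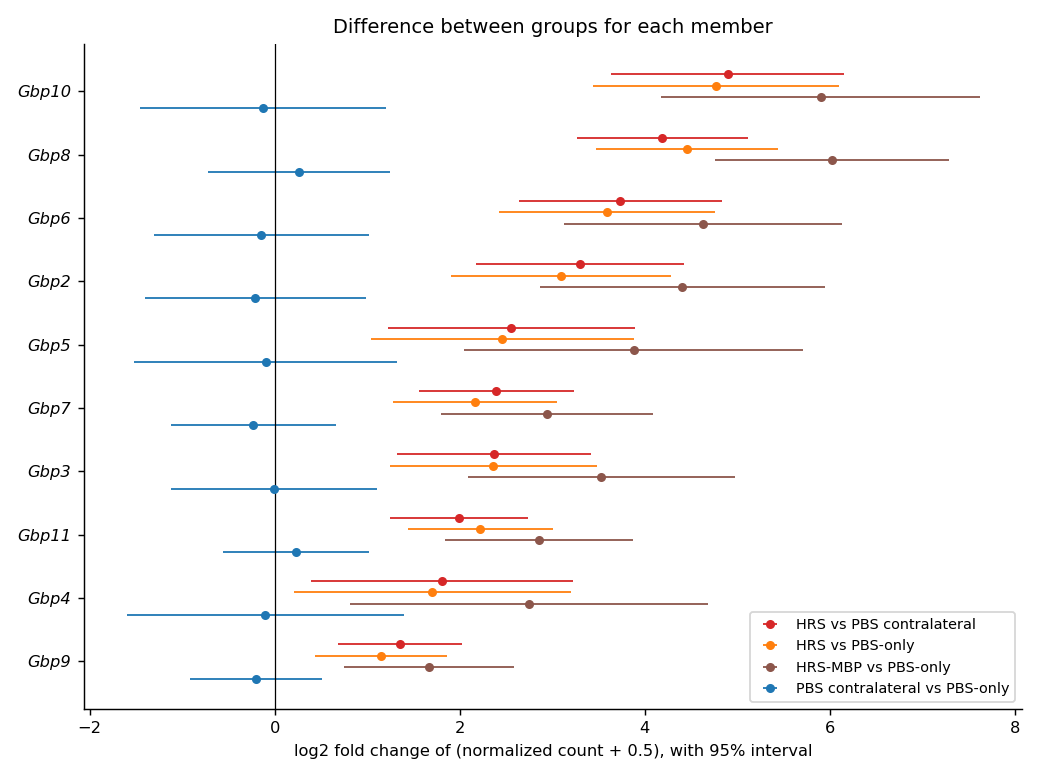
Fitted log2FC of each member with its 95% interval in 4 comparisons. The intervals of the 3 comparisons with HRS or HRS-MBP lie above 0, and those of contralateral PBS against PBS-only include 0.

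The members were then examined within PBS muscle alone. Between contralateral PBS legs and PBS-only legs, 0 of 10 members were called in either direction by limma, and 0 had an unadjusted p below 0.05, where 0.00609% of tested genes (1 gene) were called. The median log2FC of the members was -0.11, and it was -1.14 without both legs of m867 and 0.87 without both legs of m868. The 95% intervals reached from -1.60 to 1.40, both for *Gbp4*, so that changes of over 2-fold remained possible in either direction. An exact two-sided permutation over animals, 5 against 2, gave p-values from 0.381 (*Gbp8*) to 1, with a smallest possible p of 0.0476.

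The larger contrast lay between the 2 PBS-only animals. Both legs of m868 exceeded both legs of m867 for 9 of the 10 members, and *Gbp8* was the exception. The mean of the legs was 9.14-fold higher in m868 for *Gbp4*, 6.95-fold for *Gbp5*, 5.21-fold for *Gbp3*, 5.11-fold for *Gbp2*, 5.04-fold for *Gbp10*, 4.28-fold for *Gbp6*, 2.78-fold for *Gbp9* and 2.23-fold for *Gbp7*. The 2 legs of an animal were much closer, differing by at most 1.45-fold in these 8 members. A difference of over 2-fold between the animals, on the log2(normalized count + 0.5) scale, was found in 8 of 10 members, all higher in m868, and in 1.27% of all tested genes in either direction (0.950% higher in m868). As the contrast is between 2 animals, it has no test.

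**Figure D5:**
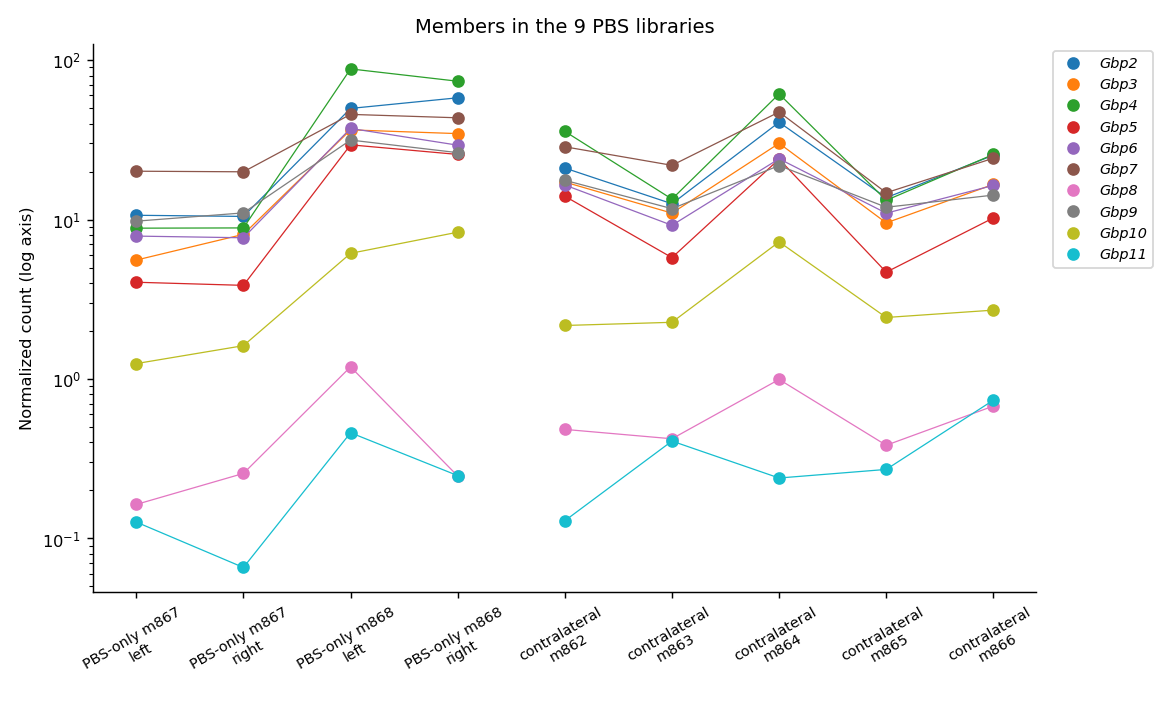
Normalized count (log axis) of the 10 members in the 4 PBS-only legs and the 5 contralateral PBS legs, with lines joining the libraries of a group to guide the eye only. Most members are high together in both legs of m868 and in the contralateral leg of m864, and low together in m867, m863 and m865.

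The immunity-related GTPases (IRGs), which act on the same vacuoles as GBPs, were also higher in m868. Their median log2 difference was 2.26 over 7 genes, in a range from 0.97 to 3.10 (*Tgtp1*). Of the 7, 5 were over 2-fold higher in m868, where 0.950% of all tested genes were. Of the transcription factors known to act at *Gbp* promoters, *Batf2* differed most, by 1.59, and *Irf1* stood at 9.88 and 13.1 in m867 and 32.4 and 30.7 in m868. *Ifng* itself was listed at 0 and 0.0284 in m867 and at 0 and 0.243 in m868, all below the worth of 3 reads (0.0853 to 0.364 in these libraries). Markers of T cells, B cells, endothelium, fibroblasts and muscle fibres did not pass a 2-fold difference in any of their tested genes, and of 7 macrophage markers only *Cd68* did, by a narrow margin. The macrophage markers summed to 113 and 184 in m867 and to 208 and 236 in m868. The 2 legs of m868 were also the shallowest libraries, at an implied depth of 17.2 M and 8.60 M reads, against 29.7 M and 40.7 M in m867. The part of depth in this contrast was not tested.

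In the contralateral legs, m864 was highest for 9 of 10 members and m865 or m863 lowest for 8. *Gbp4* spanned 13.2 to 61.3 there, *Gbp5* 4.68 to 23.9 and *Gbp9* 11.7 to 21.8. The HRS leg of m864 was also the highest HRS leg for 7 members. The 5 contralateral legs were all listed at 0 for *Ifng*, while their HRS legs held 1.36, 0.744, 5.30, 0.349 and 1.43.

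HRS-MBP muscle had high levels of every member. *Gbp2* was at 462 and 579.6, *Gbp6* at 417 and 405, *Gbp10* at 259.7 and 202, *Gbp8* at 55.6 and 59.8, *Gbp4* at 166 and 205, and *Gbp11* at 4.45 and 4.84 normalized counts in m860 and m861. Both libraries lay above the 4 PBS-only legs for 9 of the 9 members other than *Gbp11*, but so they did for 39.8% of tested genes. By limma these 9 were called higher than in PBS-only mice (20.7% of tested genes were), and their median log2FC was 3.88 (0.11 for all tested genes), in a range from 1.67 (*Gbp9*) to 6.03 (*Gbp8*). Without both legs of m867, *Gbp4* (1.19, adjusted p = 0.205) and *Gbp9* (0.95, adjusted p = 0.0512) were not called. The median over the 10 members was 3.71, and it was 2.58 without both legs of m867 and 4.95 without both legs of m868. *Gbp4* also lost its call without the left leg of m867 (adjusted p = 0.0503), without m860 (0.0717) or without m861 (0.0977). Over 2 animals against 2, an exact two-sided permutation test cannot go below 0.333.

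Compared with HRS legs, the point estimates of all 10 members were higher in HRS-MBP, by 0.51 (*Gbp9*) to 1.57 (*Gbp8*) on the log2 scale, but 0 of 10 were called, where 0.396% of tested genes were called higher. Only *Gbp8* had an unadjusted p below 0.05 (adjusted p = 0.241), with an interval from 0.35 to 2.80. In 0 members did every HRS-MBP library lie above every HRS leg (7.1% of tested genes). Without the HRS leg of m864, *Gbp8* was called (log2FC 2.07, adjusted p = 0.0041) and no other member was. Exact permutation p-values over the 5 and 2 libraries ran from 0.143 to 0.429, with 0.0476 the smallest possible. The antigen named in the title, its concentration there and the leg, which is not stated for HRS-MBP, cannot be told apart.

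The other genes of the pathway were taken from lists, whose counts stand against 16.9% of all tested genes called higher and 6.27% called lower between HRS and contralateral legs. There, 4 of 8 genes of the IFN-γ receptor and its signal were called higher and 0 lower. *Ifngr2*, a receptor chain, was at -0.48. Of 10 transcription factors known at *Gbp* promoters, 7 were called higher, led by *Irf8* (3.32), while *Irf2* (0.44), *Nfkb1* (0.78) and *Rela* (0.82) stayed below a 2-fold change. Both type I interferon receptor genes were called higher, with *Ifnar2* at 1.67. *Ifnlr1* did not pass the filter and *Ifnb1* was not analysed here.

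Of the genes that act beside GBPs, 7 of 7 listed IRGs were called higher (median log2FC 3.13), where 16.9% of tested genes were. *Iigp1* was the most changed (3.96). *Iigp1* reached 735, 285, 969.6, 206 and 1231 normalized counts in the HRS legs, so that, as for *Gbp6*, *Gbp7* and *Gbp10*, m866 was the highest and m865 the lowest. The inflammasome genes downstream of GBPs were called higher in 8 of 8 cases, led by *Il1b* (3.91), with *Casp4*, which encodes the sensor of cytosolic lipopolysaccharide, at 2.55. *Il1b* is made by myeloid cells, whose markers rose too, so its place in the list does not tie it to GBPs. Of the 10 genes of the autophagy-like conjugation system that places GBPs on membranes 0 were called, with *Map1lc3b* changed most (-0.70), and 0 of 5 prenylation enzyme genes, with *Fnta* changed most (-0.51). Against 23.2% of tested genes called in either direction, lists of this size do not set these genes apart. Among 10 further GTPases listed for comparison, 5 were called higher and 1 lower. Of these, *Ifi47*, itself an IRG, was at 3.47 and *Atl2*, an atlastin of the endoplasmic reticulum, at -1.23.

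Markers of infiltrating cells, like the members, were higher in HRS than in contralateral legs as groups. Leg by leg they did not follow every member. Among the HRS legs, that of m866 was highest for *Gbp6*, *Gbp7* and *Gbp10*. The same leg was lowest for the summed macrophage, T cell, B cell, NK and neutrophil markers. Of macrophage markers 7 of 7, of T cell markers 7 of 7, of B cell markers 4 of 4, of NK markers 4 of 4 and of tested neutrophil markers 3 of 3 were called higher in HRS than in contralateral legs, where 16.9% of tested genes were. Of fibroblast markers 2 of 4 were called higher, *Col1a1* (log2FC 3.40) and *Col3a1* (2.98), which encode fibrillar collagens. Called lower were 4 of 8 muscle fibre and 3 of 3 adipocyte markers, against 6.27% of tested genes. Macrophage markers summed to 1106 to 5494 normalized counts in HRS legs, 119 to 318 in contralateral legs, 113 to 236 in PBS-only legs, and 4407 and 4785 in HRS-MBP. T cell markers summed to 20.04 to 131, 1.44 to 3.69, 1.70 to 2.91, and 105 and 145. The 5 endothelial markers, in cells known to express GBPs on IFN-γ, were not called between HRS and contralateral legs and summed to 278 to 326 in HRS legs and 267 to 319 in contralateral legs. In HRS-MBP against PBS-only, *Kdr*, a receptor for vascular endothelial growth factor, was called lower (log2FC -1.12, limma adjusted p = 4.78e-05). Muscle fibre genes were high in all libraries, with *Ckm* at 5049.9 to 27962. *Cd8a* was listed at 0 in 1 contralateral and 3 PBS-only legs. The part of infiltrating cells in the members' rise was not tested.

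Beyond the 10 members, the table held 1 further gene named *Gbp*, the chromosome 3 gene *Gbp2b* (the mouse Gbp1). It had 25.7, 18.4, 88.1, 7.46 and 18.2 normalized counts in HRS legs against 0.224, 0.412, 2.03, 0.471 and 0.565 in contralateral legs (log2FC 4.37, adjusted p = 9.46e-06). Its HRS-MBP values, 105 and 126, lay above each HRS leg, but no call was made against HRS (limma log2FC 2.32, adjusted p = 0.139).

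The genes whose pattern was most like the members' mean log2 value were found over the 10 legs of the 5 paired mice after subtracting the group means. They were *Tgtp2*, an IRG (Pearson r = 0.971), *Parp14*, an ADP-ribosyltransferase (0.969), *Batf2* (0.969), *Irf1* (0.962) and *Ifi35* (0.960). Over all 16 libraries they were *Irf1* (r = 0.992), *Tgtp2*, *Parp14*, *Tap1*, which transports peptides for MHC class I, and *Iigp1* (0.989), but the libraries fall into PBS and HRS clusters, so these values mostly restate the difference between the groups. The points share animals and libraries, and the correlations are a description.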

How the data were processed

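Bulk RNA of hamstring muscle was measured in 16 libraries from 9 mice, grouped by the treatment, mouse and leg in the labels. The values the authors deposited are normalized counts per gene, a non-negative signal. The submitters' processing notes name STAR 2.7.8a, limma and mm39 with no role given, whereas 98.98% of the genes matched by symbol and chromosome had the start, and an end 1 base beyond the end, of GENCODE M21 (GRCm38), whose coordinates are used here. The counting, its use of strand and the scaling are not given in the sources used here, so values of overlapping or near-identical genes are uncertain. Of the low values (up to 20 steps), 75.1% to 77.5% fell within 0.02 of a whole number of steps, so reads were not taken as recovered. The step gave an implied depth of 8.60 M to 73.9 M reads per library, and a floor of 3 reads of 0.0324 to 0.364 normalized counts. No 2 libraries were identical.

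Differences were tested in R 4.3.3 with limma 3.58.1 (lmFit, eBayes with trend) on log2(normalized count + 0.5) for the 16414 genes with a mean of at least 0.5, in a fit of 4 groups, with Benjamini-Hochberg adjustment over all of them. A log2 fold change on this scale understates the change of low genes. Intervals are at 95%. Since the sources do not give platform per library, platform and group could not be separated. The PBS-only legs come from 2 animals, so p-values over legs are too small there, and exact permutation over animals is given beside them. Levels per kilobase used the annotated transcript with the longest coding sequence.

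The same mouse number means the same animal, so numbers pair the legs. Deviations of paired legs from their group means correlated across genes at 0.119, 0.163, 0.0972, -0.0256 and -0.366 in m862 to m866. The mean was -0.0025 for legs of the same mouse and -0.0068 for legs of different mice. By this measure paired legs did not stand apart from unpaired ones, and the pairing rests on the labels. The main fit had no block. The fit was tested on simulated data first. The members, gene lists, marker lists and tests were chosen with earlier results of these data known. Named genes were the 10 members, of each list the gene with the largest change (in 1 list it is not reported here), and the genes most like the members' mean. Other genes named in the text (*Irf1*, *Ifng*, *Irf2*, *Nfkb1*, *Rela*, *Casp4*, *Ifngr2*, *Batf2*, *Tgtp1*, *Ckm*, *Cd68*, *Cd8a*, *Kdr*, *Col3a1*, *Gm43302*) were chosen after their values were seen. Among the alternatives were other pseudocounts, filters and scalings, a fit without trend or with fewer groups, the mouse block, and leaving out libraries in turn. Scaling to equal totals, leaving out whole mice and the sum with *Gm43302* were chosen after seeing the data. The human data of the study were not used here.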

Additional observations from a re-analysis of the deposited data

Results flagged for a closer look

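Among 30 sets of values (10 members in the 3 groups of 4 or 5 libraries), 2 held a library far from the others by Dixon's 95% criterion, and chance alone flags about 1 in 20. *Gbp10* was at 7.24 normalized counts in the contralateral PBS leg of m864, while the other 4 contralateral legs held 2.17 to 2.703. *Gbp8* was at 1.19 in the left leg of PBS-only mouse m868, while the other 3 legs held 0.163 to 0.256. Its value of 1.19 is worth 18.3 reads, and that of the right leg of m868 2.03 reads.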

How the results depend on the processing

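Over 24 alternatives, of the 9 members other than *Gbp11*, only *Gbp4* lost its call between HRS and contralateral legs, in 5 of them. Against PBS-only legs *Gbp4*, *Gbp9* and *Gbp5* lost calls, in 17, 6 and 1 of 24 alternatives. For HRS-MBP against PBS-only, *Gbp4* lost its call in 4 of 19 alternatives and *Gbp9* in 1. With mouse as a random replicate block, 3772 genes were called between HRS and contralateral legs instead of 3810, and 3652 with a fixed block for the mouse in the 10 paired libraries. The random block ended the call of *Gbp4* (adjusted p = 0.057, and 0.0531 against PBS-only) and of no other member, and the fixed block kept it (0.00109). Scaling to equal totals, added after the data were seen, took the all-gene median between HRS and contralateral legs from 0.08 to 0.45 on the log2 scale and the share of higher calls from 73.0% to 92.8%, and quantile normalization gave -0.16 and 56.2%.

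A filter at a mean of 5 left 2510 genes called for HRS against contralateral legs, 2650 against PBS-only and 13 for HRS-MBP against HRS, where fewer genes were tested. For HRS-MBP against HRS, 76 genes were called, but 4 with only these groups in the fit, 49 with PBS-only legs averaged per mouse, 208 without both legs of m866, 562 without both legs of m864 (with 1 member, *Gbp8*), and 25 to 590 genes and 0 to 1 members with a single library left out. The cause was not tested. For contralateral against PBS-only legs, 1 gene was called, but 2 under quantile normalization, 3 without m866 and 0 to 2 with a library left out. There it was 0 with the smaller pseudocount, no filter, a filter of 5, only these groups, averaged legs, equal totals, or without m864 or m868.

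None of the members' log2 fold changes between contralateral and PBS-only legs was called, and their signs turned. Without m868 they were 0.94 (*Gbp2*), 1.15 (*Gbp3*), 1.46 (*Gbp4*), 1.23 (*Gbp5*), 0.87 (*Gbp6*), 0.34 (*Gbp7*), 0.51 (*Gbp9*) and 0.87 (*Gbp10*), and without m867 -0.070 (*Gbp8*) and -0.024 (*Gbp11*). The others went further down without m867, to -1.36 (*Gbp2*), -1.42 (*Gbp5*) and -1.66 (*Gbp4*) at the lowest. *Gbp3* was at 0.0033 with the smaller pseudocount. With a library left out they ranged from -0.60 to 0.21 (*Gbp2*), -0.48 to 0.39 (*Gbp3*), -0.62 to 0.46 (*Gbp4*), -0.55 to 0.38 (*Gbp5*), -0.49 to 0.25 (*Gbp6*), -0.47 to 0.082 (*Gbp9*) and -0.51 to 0.27 (*Gbp10*). In the 250 bases before the start alone, 2.98% of promoters held the ISRE-like motif, 7.02% the GAS-like motif and 0.332% both. Depth limits *Gbp8* and *Gbp11* in PBS-only legs, where 1 and 2 libraries fell under the worth of 3 reads.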

Other observations

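Across the 9 PBS libraries the members varied together, with a median Pearson r of 0.910 over the 45 pairs on the log2 scale (range 0.163 to 0.996). *Gbp4* followed the others most closely (median r 0.977) and *Gbp11* least (0.321), and *Gbp11* and *Gbp8* (0.640) are also the members with the fewest reads there. Across the 7 HRS and HRS-MBP libraries the median was 0.906 (range 0.521 to 0.995), with *Gbp9* highest (0.949) and *Gbp8* lowest (0.809). These libraries share animals and legs, so the correlations carry no test.

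The values of *Gbp10* and *Gbp6* cannot be separated with certainty, so their ratio is given as listed. It was 0.132 to 0.301 in the 9 PBS libraries and 0.401 to 0.740 in the 7 HRS and HRS-MBP libraries, with no overlap, and the highest ratio was in the HRS leg of m866. The ratio of *Gbp8* to *Gbp9* was 0.00938 to 0.0475 and 0.213 to 1.20 in the same libraries.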
